A study of Mus musculus with 8 samples.

Results

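The E proteins and their Id inhibitors were examined as one set of 6 genes, namely Tcf3 (E2A), Tcf12 (HEB) and Tcf4 (E2-2) for the E proteins and Id1, Id2 and Id3 for the inhibitors, out of 26146 gene symbols in the transcript tables. Members were matched by gene symbol. Together they held 27 of the 63753 transcripts quantified in pre-B cells, and between 8 and 38 open-chromatin peaks in each library of hematopoietic progenitors.

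E proteins are basic helix-loop-helix (bHLH) transcription factors that form homodimers, or heterodimers with tissue-specific bHLH partners, and bind the E-box, CANNTG. Id proteins keep the helix-loop-helix that makes the dimer but lack the basic region that touches DNA, so a dimer of an Id and an E protein does not bind an E-box. In B-cell progenitors E2A and HEB act upstream of Ebf1, Foxo1 and Pax5 and of the genes for the surrogate light chain and the recombinase, and Id proteins are known to counteract them there.

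The study asked how the loss of Dido3, the largest product of Dido1, alters B-cell precursors in the bone marrow of C57BL/6 mice. The Dido1∆E16 mice carried one floxed and one deleted allele of exon 16 (Dido1flE16/∆E16), with the iCre recombinase driven by Vav1, which is active throughout the blood lineage, and the R26R-EYFP reporter. Their controls, called WT, were littermates with one floxed and one intact allele (Dido1flE16/+) that carried the same iCre and reporter, so both genotypes expressed the recombinase. Young adult mice matched for age and sex were used. A figure legend of the paper describes the ATAC-seq and RNA-seq samples as male and differing in age. RNA came from pre-B cells sorted by surface markers, B220+ and IgM- among them, each library from a pool of mice, and chromatin accessibility by ATAC-seq from LSK cells (Lin- Sca-1+ cKit+), a population of stem cells and multipotent progenitors. There were 2 libraries in each of the 4 groups. The pre-B and LSK libraries are different cells, so no value is paired across the assays.

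The 4 pre-B libraries held 1121 Mb of aligned bases or more over annotated transcripts. Exon 16 of Dido1, the deleted exon, had a coverage scaled to TPM, a transcript level corrected for length and library size, of 24.6 and 21.8 in the WT libraries and of 0.295 and 0.0843 in the Dido1∆E16 libraries, whereas the gene sum of Dido1 was 44.3 and 46.0 TPM in WT and 81.6 and 87.2 TPM in Dido1∆E16. Among B-lineage markers, Cd79a was at 3648 to 4476 TPM and Vpreb3 at 4522 to 5825 TPM in the 4 libraries, and 6 of 8 T and NK cell markers, Cd3e among them, were listed at 0 throughout. Of the others, Klrb1c was at 3.30 to 7.37 TPM and Nkg7 at 16.3 TPM in Dido1∆E16 2 alone. Mature B markers summed to 691 and 701 TPM in WT and 661 and 823 TPM in Dido1∆E16. Plasma and switched B markers summed to 249 and 280 TPM in WT and 290 and 272 TPM in Dido1∆E16. Of the 4 tested, Ighg2b was higher in Dido1∆E16 (4.83 and 0 TPM in WT, against 66.7 and 47.1 TPM), Sdc1 was lower and 2 overlapped. Neutrophil and monocyte markers, 8 of 8 detected, summed to 194 and 1551 TPM in WT and 781 and 6465 TPM in Dido1∆E16, and the 5 erythroid markers listed to 301 and 922 TPM in WT and 677 and 8641 TPM in Dido1∆E16, highest in Dido1∆E16 2 in both cases. Markers of pro-B and cycling pre-B cells (Kit, Il7r, Dntt, Igll1, Vpreb1, Mki67, Top2a and Ccnb1) summed to 1473 and 469 TPM in WT and 2598 and 1891 TPM in Dido1∆E16. Within that list the cycling gene Mki67 was at 228 and 25 TPM in WT and 86.3 and 139 TPM in Dido1∆E16, lowest in WT 2. In these bulk samples a smaller number of cells of a type and less RNA per cell cannot be told apart. The part of these differences in the values below was not tested.

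In pre-B cells the gene sums of the 6 genes were first compared between genotypes. Both Dido1∆E16 libraries lay above both WT libraries for Tcf3, Tcf4, Id1 and Id3, and the genotypes overlapped for Tcf12 and Id2. Of all 11866 genes tested, 27.2% lay above WT in this way and 15.5% lay below, with a median log2 fold change of 0.07. None of the 6 genes was called by limma at an adjusted p under 0.05 together with a log2 fold change of 0.6 or more in either direction, a rule that called 6 genes in all, or 0.0506%. At an unadjusted p under 0.05, Id1 and Id3 passed, as did 11.7% of all genes. With 2 libraries against 2, an exact permutation test of a single gene cannot go below p = 0.33.

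**Figure D1:**
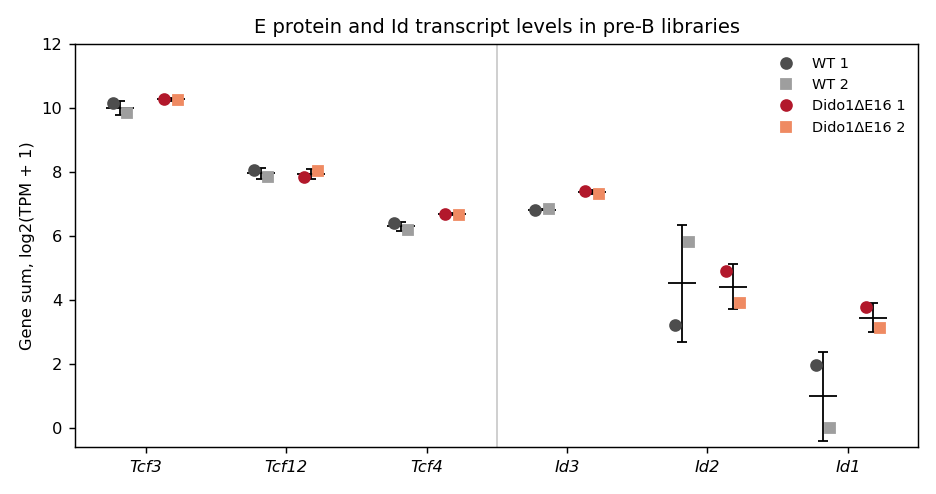
Gene sums of the 3 E protein genes (left of the line) and the 3 Id genes (right) as log2(TPM + 1) in the 4 pre-B libraries, with the mean and SD of each genotype (n = 2) as a bar and whiskers. Tcf3 lies highest, the Dido1∆E16 points of Id3 and Tcf4 lie above both WT points, and the WT points of Id2 and Id1 lie far apart.

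By level, the order was Tcf3, Tcf12, Id3, Tcf4, Id2 and Id1. TPM corrects for transcript length, so these levels can be set side by side. Every neighbour in that order was separated over the 4 libraries except Id2 and Id1, since the lowest Id2 value, 8.26 TPM, was under the highest Id1 value, 12.6 TPM. Tcf3 was 4.60 times as high as Tcf12 on average and higher than 99.3% of the genes tested.

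Tcf3 encodes E2A, the most abundant E protein in B-cell progenitors. Its gene sum was 1141 and 912 TPM in the WT libraries and 1254 and 1208 TPM in Dido1∆E16. WT 2 was the low sample, and WT 1 stood nearer to the Dido1∆E16 libraries than to WT 2. The log2 fold change on the log2(TPM + 1) scale was 0.27 (SE 0.16, adjusted p = 0.615, limma), with a 95% interval from -0.16 to 0.70. Tcf3 made up 75.4% to 79.2% of the summed E protein TPM in each library.

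Splicing of Tcf3 gives 2 proteins, E12 and E47, that differ in the exon encoding the basic region and the helix-loop-helix. The files credited all Tcf3 reads to 1 of 8 annotated transcripts, which carries the E12 exon (chr10:80412827-80413062, minus strand, build mm10), and listed the transcripts with the E47 exon (chr10:80410398-80410624) at 0. The 180 bases at the 3′ end of each exon, which encode the DNA-binding domain, are shown to make plain how alike the alternatives are. They are read from the GRCm38.p6 genome on the minus strand, and capitals mark the 34 positions at which the exons differ.
E12: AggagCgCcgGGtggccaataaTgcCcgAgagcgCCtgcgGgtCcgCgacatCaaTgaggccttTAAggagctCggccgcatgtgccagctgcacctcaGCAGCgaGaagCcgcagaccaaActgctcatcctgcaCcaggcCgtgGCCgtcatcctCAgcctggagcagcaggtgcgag
E47: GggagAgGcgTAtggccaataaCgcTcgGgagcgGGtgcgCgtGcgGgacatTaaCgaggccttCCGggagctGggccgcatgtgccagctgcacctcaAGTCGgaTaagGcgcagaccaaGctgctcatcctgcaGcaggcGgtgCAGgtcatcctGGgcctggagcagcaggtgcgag
The exons shared 81.1% of these bases. The E12 exon had a coverage scaled to TPM of 370 and 341 in WT, against 491 and 379 in Dido1∆E16, well under its 5′ neighbour (chr10:80413205-80413337), which had 1407 and 989 in WT and 1618 and 1224 in Dido1∆E16. The last exon, which also lay downstream, was at 647 and 628 in WT and 724 and 633 in Dido1∆E16. As a share of the mean coverage of the 16 exons common to all Tcf3 transcripts, the E12 exon stood at 31.5% and 36.2% in WT, against 37.9% and 30.3% in Dido1∆E16. The genotypes overlapped on this measure (WT 33.8% ± 3.32, Dido1∆E16 34.1% ± 5.32, SD, n = 2, exact permutation p = 1). As a share of its 5′ neighbour, the E12 exon stood at 26.3% and 34.5% in WT, against 30.4% and 31.0% in Dido1∆E16, again with overlap. Set against the last exon, by the values above, the E12 exon was higher in Dido1∆E16 than in WT without overlap. The overlap thus depended on the reference exon, and the last comparison was not tested. Because the E47 transcripts were listed at 0, the E47 exon has no coverage value that can be read as a level. This splice choice could therefore be read only from the E12 exon relative to other exons.

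Tcf12 encodes HEB, which pairs with E2A. Its gene sum was 268 and 226 TPM in WT and 226 and 261 TPM in Dido1∆E16. The genotypes overlapped completely, with 1 high and 1 low library in each. The log2 fold change was -0.02 (SE 0.15, adjusted p = 0.97, limma), and its 95% interval ran from -0.44 to 0.40. The full-length transcript uc009qpf.2, with 21 exons, was credited with most of it, at 252 and 210.3 TPM in WT and 207 and 226 TPM in Dido1∆E16. The shorter uc009qpe.3, which begins at an internal first exon, was at 9.53 and 8.27 TPM in WT, against 10.3 and 19.1 TPM in Dido1∆E16, and uc009qpd.2, which begins further downstream, was at 6.00 and 5.09 TPM in WT, against 7.6 and 11.6 TPM in Dido1∆E16. For both short transcripts the Dido1∆E16 libraries were above the WT libraries, yet neither passed (adjusted p = 0.720 for each, limma, where 0.153% of all transcripts were called).

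Coverage along Tcf12 was uneven, although most of its TPM was credited to the full-length transcript. The 8 exons of the full-length transcript that lie before the internal first exon had a mean coverage scaled to TPM of 54.5 and 46.7 in WT, against 70.4 and 71.0 in Dido1∆E16. The 13 exons after it had 303 and 254 in WT and 249.9 and 288 in Dido1∆E16. The first stretch was thus at 18% and 18.4% of the second in WT, compared with 28.2% and 24.7% in Dido1∆E16, so that both Dido1∆E16 libraries lay above both WT libraries (exact permutation p = 0.33, the smallest possible). The internal first exon itself (chr9:71895930-71896096, minus strand), which is the first exon of shorter RefSeq transcripts and in GENCODE holds 5′ untranslated and coding bases, had 188 and 152 in WT and 138 and 192 in Dido1∆E16, with overlap. It is absent from the full-length transcript, yet in every library it lay above the mean of the 8 exons before it. The exon coverage thus did not follow the credited TPM, and the division between full-length and short transcripts is uncertain. A 72-base exon that is included in only some transcripts (chr9:71868999-71869070) had 27.1 and 9.91 in WT and 34.4 and 37.2 in Dido1∆E16, which is 8.56% and 3.77% of the 10 exons found in most transcripts in WT and 13.5% and 12.7% in Dido1∆E16 (exact permutation p = 0.33). The comparison of the exons before and after the internal first exon was chosen after the coverage had been seen.

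Tcf4 encodes E2-2, the E protein best known from plasmacytoid dendritic cells. Its gene sum was 83.5 and 72.1 TPM in WT and 102 and 99.4 TPM in Dido1∆E16. The Dido1∆E16 libraries were close to each other and above both WT libraries. The log2 fold change was 0.38 (SE 0.14, adjusted p = 0.430, limma), with a 95% interval from -0.003 to 0.75. Plasmacytoid dendritic cell markers did not separate the genotypes as a list. Siglech was listed at 0 in both WT libraries and at 0.781 and 5.26 TPM in Dido1∆E16, while Klk1 and Clec10a were at 0 in all 4.

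Like Tcf12, Tcf4 has an internal start (chr18:69593426). The 7 exons before it had a mean coverage scaled to TPM of 14.2 and 14.9 in WT, against 22.5 and 27.0 in Dido1∆E16. The internal first exon had 83.3 and 83.9 in WT and 123 and 131 in Dido1∆E16, and the 11 exons after it had 89.1 and 74.9 in WT and 102 and 103 in Dido1∆E16. The stretch before the internal start was thus at 16% to 26.3% of the stretch after it in the 4 libraries. Both Dido1∆E16 libraries were above both WT libraries in all 3 stretches and in this share (exact permutation p = 0.33 for each). The planned exon tests named only Tcf3 and Tcf12, so these Tcf4 comparisons were not planned. The transcript that begins at the internal start, uc008fnv.1, was at 33.5 and 42.7 TPM in WT, against 59.5 and 51.6 TPM in Dido1∆E16 (log2 fold change 0.54, SE 0.19, adjusted p = 0.559, limma). The full-length uc012ben.1 was at 49.97 and 29.4 TPM in WT, against 0 and 47.8 TPM in Dido1∆E16, and in the library where it was listed at 0, Dido1∆E16 1, another full-length transcript, uc008fns.1, was listed at 42.0 TPM and at 0 in the other three libraries. These full-length entries share most of their exons, so the division between them is uncertain.

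**Figure D2:**
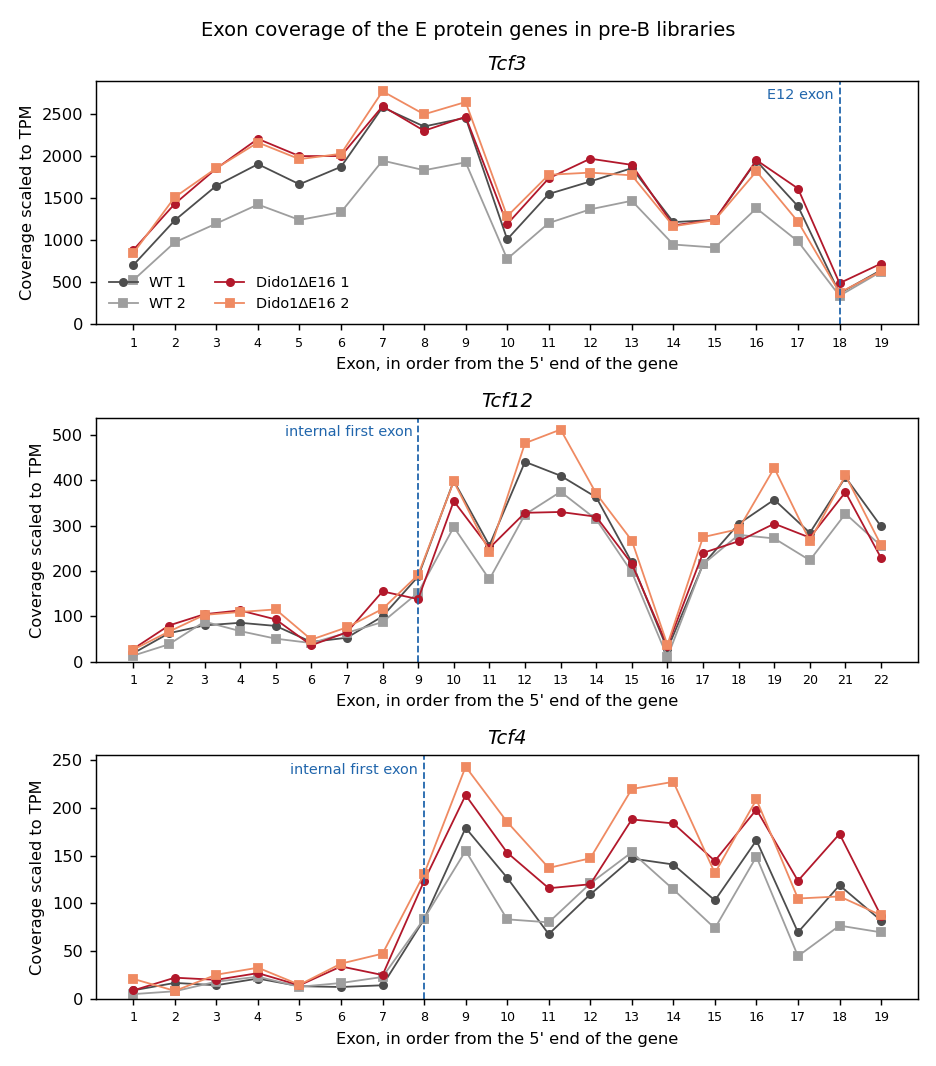
Coverage scaled to TPM of the exons of Tcf3, Tcf12 and Tcf4, in order from the 5′ end of each gene, with 1 line per pre-B library and a dashed line at the E12 exon or the internal first exon. Coverage drops at the E12 exon of Tcf3 in all 4 libraries, and the mean coverage of the exons after the internal first exon is higher than that of the exons before it in Tcf12 and Tcf4 in all 4 libraries, although single exons such as the 72-base exon of Tcf12 lie lower.

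Id3 held most of the inhibitor RNA. It was at 111 and 112 TPM in WT, against 169 and 158 TPM in Dido1∆E16. The WT libraries were close to each other, and both Dido1∆E16 libraries were higher, by 1.47-fold on the means (WT 112 ± 0.792, Dido1∆E16 164 ± 7.82, SD, n = 2). The log2 fold change was 0.55 (SE 0.12, unadjusted p = 0.0083, adjusted p = 0.258, limma), with a 95% interval from 0.23 to 0.86. The value missed the threshold both on the adjusted p and on the size of the change. By unadjusted p, Id3 ranked at 384 among the genes tested.

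Id2, best known for its part in innate lymphoid and dendritic cells, differed more between the WT libraries than between genotypes. It was at 8.26 and 55.1 TPM in WT, against 28.9 and 14.0 TPM in Dido1∆E16, with WT 2 the highest and WT 1 the lowest of the 4. The log2 fold change was -0.10 (SE 0.97, adjusted p = 0.98, limma), and its 95% interval, from -2.76 to 2.56, leaves its direction undetermined.

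Id1, a target of BMP signaling, was the least abundant of the set. It was listed at 2.9 and 0 TPM in WT, against 12.6 and 7.71 TPM in Dido1∆E16, with both Dido1∆E16 libraries above both WT libraries. The log2 fold change on the log2(TPM + 1) scale was 2.46 (SE 0.78, unadjusted p = 0.032, adjusted p = 0.369, limma), with a 95% interval from 0.33 to 4.59. Since WT 2 was listed at 0, that size depends on the pseudocount and was 4.18 with a pseudocount of 0.1.

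Across the set, Id3 gave 90.9% and 67.1% of the summed Id TPM in WT, against 80.3% and 87.9% in Dido1∆E16. Id2 gave 32.9% of it in WT 2 and 6.75% to 13.7% in the other three libraries. The ratio of summed Id to summed E protein TPM was 0.0820 and 0.138 in WT and 0.133 and 0.115 in Dido1∆E16, so the genotypes overlapped and the WT libraries gave both the lowest and the highest ratio. Every library therefore held more E protein RNA than Id RNA, and most of that E protein RNA was Tcf3.

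The genes whose profile over the 4 pre-B libraries lay nearest to each member were also identified, by Euclidean distance of centred log2(TPM + 1) among the genes tested. For Id1 the nearest was Igll1, a component of the surrogate light chain, at a distance of 0.23 against a median of 2.79 over all genes, followed by Efnb3 at 0.32. For Id2 they were Klf6 at 0.25 and Ccrl2 at 0.30 (median 2.11). The nearest to Id3 were Nudt19 and Klf8 (0.04 and 0.05), to Tcf3 Sart1 and Tnrc18 (0.02 and 0.03), to Tcf4 Tulp4 and Tmco4 (0.02 each) and to Tcf12 Rassf3 and Fmnl1 (0.02 and 0.03). With 4 libraries, such likeness is a description.

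Genes that E proteins are known to control in B-cell progenitors were then listed beside the set. All 17 were tested and none was called by limma (4 passed at an unadjusted p under 0.05, beside 11.7% of all genes). The Dido1∆E16 libraries were above WT for 7 genes, beside 27.2% of all genes, below for 4, beside 15.5%, and overlapping for 6, with a median log2 fold change of 0.12 against 0.07 over all genes. Ebf1 was at 465 and 457 TPM in WT and 439 and 427 TPM in Dido1∆E16, and Pax5 at 805 and 835 TPM in WT and 800.1 and 786 TPM in Dido1∆E16. For these genes of transcription factors that act with E2A, both Dido1∆E16 libraries were slightly below both WT libraries, without passing (adjusted p = 0.787 and 0.901, limma). The largest differences were in genes of the surrogate light chain and in Dntt. Vpreb1 was at 108 and 40.9 TPM in WT, against 1222 and 738 TPM in Dido1∆E16 (log2 fold change 3.81, SE 0.55, adjusted p = 0.191, limma). Vpreb2 was at 27.1 and 8.76 TPM in WT, against 382 and 168 TPM in Dido1∆E16 (log2 fold change 3.94, SE 0.68, adjusted p = 0.218). Dntt, which encodes the terminal transferase that adds bases at recombination joints, was at 48.7 and 7.18 TPM in WT, against 191 and 96.0 TPM in Dido1∆E16 (log2 fold change 2.76, SE 0.97, adjusted p = 0.409). Vpreb1, Igll1, Dntt and Il7r are also in the list of pro-B and cycling markers. The 4 markers of that list outside the targets (Kit, Mki67, Top2a and Ccnb1) summed to 763 and 73.1 TPM in WT and 293 and 414 TPM in Dido1∆E16, with overlap, while Kit alone was at 1.63 and 0.599 TPM in WT, against 9.74 and 9.06 TPM in Dido1∆E16. The part of a difference in stage in these values was not tested.

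Among 11 bHLH partners and cofactors, Tal1, Msc and Runx1t1 were listed at 0 in all libraries, and the 7 genes tested overlapped between genotypes. Lyl1, a bHLH partner of the E proteins, was at 134 and 236 TPM in WT, against 247 and 227 TPM in Dido1∆E16 (log2 fold change 0.41, SE 0.30, adjusted p = 0.676, limma). The LIM-only adaptor gene Lmo2 was at 23.6 and 21.9 TPM in WT and 16.7 and 23.3 TPM in Dido1∆E16, and the acetyltransferase gene Ep300 at 103 and 78.0 TPM in WT and 98.1 and 109 TPM in Dido1∆E16. None passed.

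Among 11 regulators of the Id genes and proteins, 10 were tested, 8 overlapped and 2 lay above WT, a share under the 27.2% of all genes, with a median log2 fold change of 0.05. Smad1, a transducer of BMP signals, was at 6.11 and 5.71 TPM in WT, against 10.3 and 10.2 TPM in Dido1∆E16 (log2 fold change 0.71, SE 0.24, adjusted p = 0.390, limma). Zeb1, an E-box-binding repressor, was at 29.8 and 30.6 TPM in WT, against 39.4 and 40.5 TPM in Dido1∆E16 (log2 fold change 0.39, SE 0.14, adjusted p = 0.428). Skp2, a ubiquitin ligase subunit, was at 21.3 and 2.98 TPM in WT, against 11.47 and 13.7 TPM in Dido1∆E16, lowest in WT 2. Id4, the fourth inhibitor gene, was listed at 0 in all 4 libraries.

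**Figure D3:**
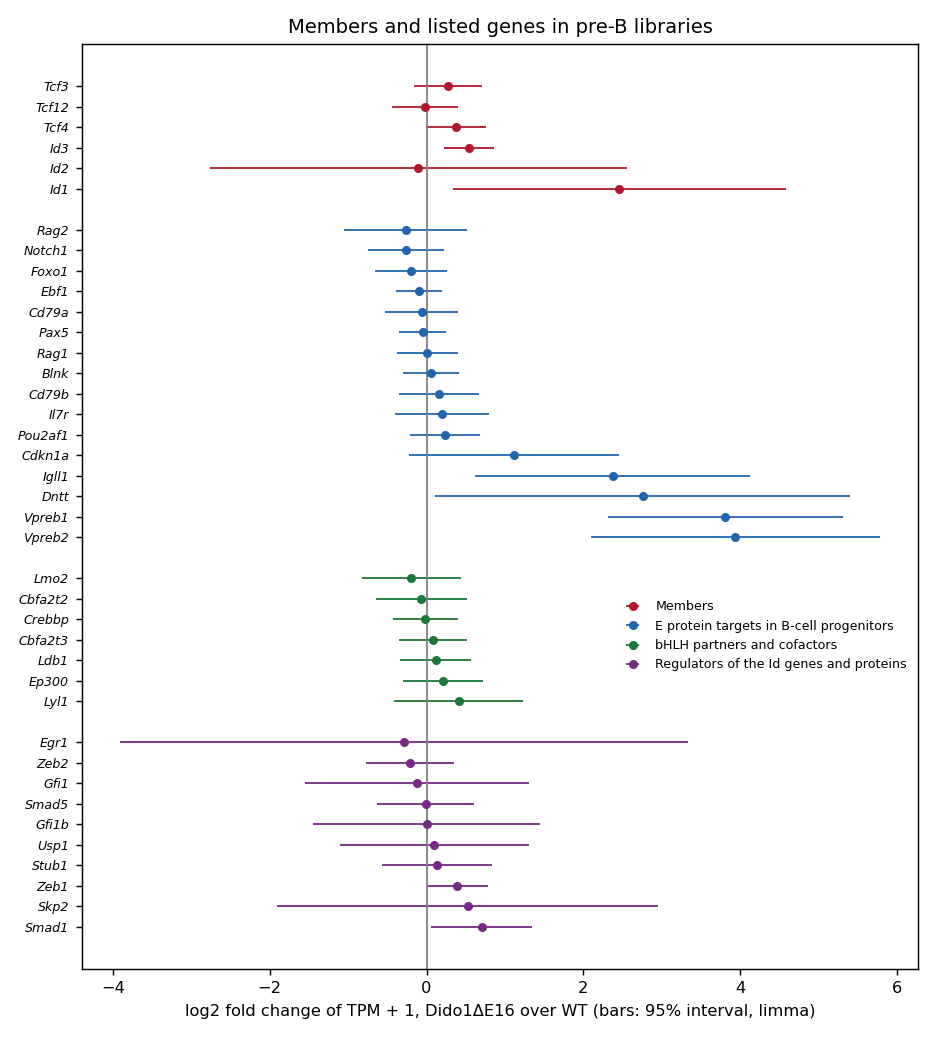
Log2 fold changes of TPM + 1 between Dido1∆E16 and WT pre-B libraries for the 6 genes and the tested genes of the 3 lists except 1 that is not reported here, with 95% intervals from limma. Intervals of Id1, Id3, Vpreb1, Vpreb2, Igll1, Dntt, Smad1 and Zeb1 lie above 0, and those of the bHLH partners and cofactors span it.

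In LSK cells the accessible regions assigned to the 6 genes were compared next. The libraries were very unequal, with 27352 and 57739 MACS2 peaks in WT and 13208 and 16329 in Dido1∆E16. Their depth was unequal too, with tag totals of 10.2 M and 52.1 M in WT and 22.5 M and 44.6 M in Dido1∆E16. WT 2 had the most tags and the most peaks, but WT 1 had the fewest tags and more peaks than either Dido1∆E16 library. The part of depth in the peak counts, peak scores and lost regions was not tested. Of 8 LSK marker genes such as Kit, Cd34 and Flt3, 6 and 8 had a peak in WT and 4 and 4 in Dido1∆E16. Neither Dido1∆E16 library had a MACS2 peak at Tcf12 or Id3, and Tcf3, Tcf4 and Id2 kept a promoter peak in all 4. Tcf12 had 3 and 7 peaks in WT and 0 and 0 in Dido1∆E16. Id3 had 1 and 3 in WT and 0 and 0 in Dido1∆E16. Tcf4 had 7 and 20 in WT and 6 and 4 in Dido1∆E16, Id1 had 2 and 4 in WT and 0 and 2 in Dido1∆E16, Id2 had 1 and 3 in WT and 1 and 1 in Dido1∆E16, and Tcf3 had 1 in each. Both Dido1∆E16 libraries had fewer peaks than both WT libraries for 3 of the 6 genes (Tcf4, Tcf12 and Id3, exact permutation p = 0.33 for each), beside 35.6% of all genes with a peak and 59.5% of those with at least 3 peaks in a library. With only the peaks in the gene body and 5 kb upstream, this held for Tcf12 and Id3 but not for Tcf4, which had 6 and 17 in WT and 6 and 3 in Dido1∆E16. No share over all genes was computed for that count.

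Peaks called by HOMER from the same libraries gave another picture. Tcf12 had 0 and 8 HOMER peaks in WT and 0 and 1 in Dido1∆E16, and Id3 had 1 and 3 in WT and 2 and 2 in Dido1∆E16. Id2 had 2 and 3 in WT and 3 and 4 in Dido1∆E16. For none of the 6 genes were both Dido1∆E16 libraries below both WT libraries, where 19.5% of all genes were. When the same number of best-scoring MACS2 peaks, 13208, was kept in each library, none of the 6 genes was lower either. The share over all genes is not given for that setting, so this count is only a description.

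**Figure D4:**
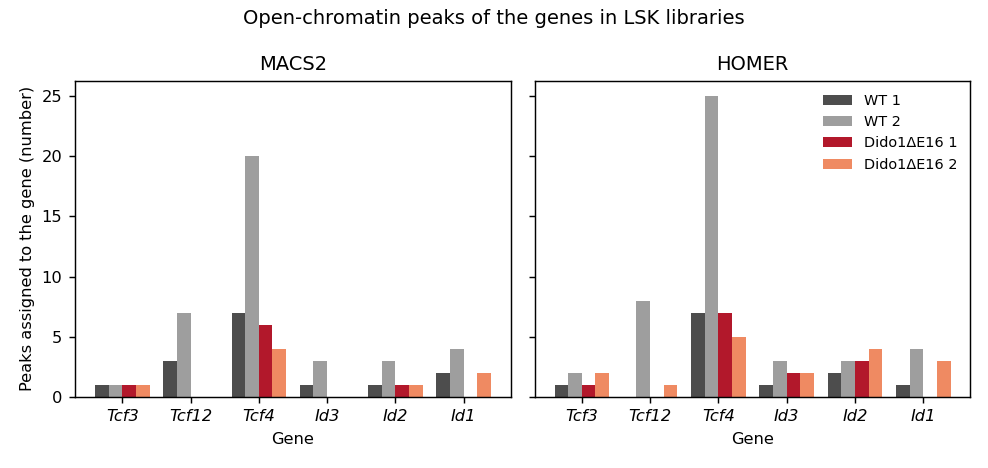
Number of peaks assigned to each of the 6 genes in the 4 LSK libraries, as called by MACS2 (left) and HOMER (right), with 1 bar per library. WT 2 has the most peaks for Tcf4 and Tcf12 with both callers, and Id3 has no MACS2 peak but 2 HOMER peaks in each Dido1∆E16 library.

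Regions found in both WT libraries were followed individually. There were 15 for the 6 genes, of which 6 were without a MACS2 peak in both mutant libraries, beside 43.7% of all 26327 shared regions. At promoters, 3 of 7 were without one, beside 15.0% of all shared promoter regions, and elsewhere 3 of 8, beside 60.6%. By gene, these were 3 of 3 for Tcf12, 1 of 7 for Tcf4, 1 of 2 for Id1 and 1 of 1 for Id3. With HOMER peaks, 3 of 12 shared regions were without one, beside 29.3%, and at promoters 1 of 5, beside 7.96%. The regions differed between the callers, since all 3 HOMER regions belonged to Tcf4, and Tcf12 had 0 shared HOMER regions. All 37 MACS2 regions of the 6 genes were present in at least 1 WT library, and 22 of them were in WT 2 alone, the library with the most peaks. The same counts over all genes were not made. Of all 57739 WT 2 peaks, 69.9% overlapped no Dido1∆E16 peak, beside 28 of 38 for the 6 genes.

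All 3 shared Tcf12 regions lacked a Dido1∆E16 peak. They were the promoter (chr9:72111354-72111773), a site in an intron of the full-length transcript (chr9:71951298-71951552) and a site upstream of the gene (chr9:72133070-72133269), where HOMER did call a peak in Dido1∆E16 2. The MACS2 score of the promoter peak was 16 in WT 1 and 48 in WT 2, higher than 5.45% and 49.9% of the peaks of those libraries, so the WT 1 peak was among its weakest. The intron peak scored 40 and 70, higher than 58.9% and 68.0%. At the internal start of Tcf12, only HOMER called a peak, in WT 2 alone. The RefSeq windows from 250 bases before to 50 after the upstream and the internal start (GRCm38.p6, minus strand) are printed. The promoter peak of WT 2 (chr9:72111030-72112053) covered most of the first, and that of WT 1 reached only its edge. Most pre-B coverage lies after the second. Capitals mark the E-box CAGCTG, which E proteins bind. It was sought together with CAGGTG on both strands.
Tcf12 upstream start, chr9:72111770-72112069: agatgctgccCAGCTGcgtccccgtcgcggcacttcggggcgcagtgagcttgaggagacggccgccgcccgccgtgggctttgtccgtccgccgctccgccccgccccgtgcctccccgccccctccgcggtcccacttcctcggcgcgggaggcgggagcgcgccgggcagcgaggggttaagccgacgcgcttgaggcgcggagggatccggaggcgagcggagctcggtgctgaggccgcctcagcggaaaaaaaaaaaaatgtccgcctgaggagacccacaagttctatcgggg
Tcf12 internal start, chr9:71896047-71896346: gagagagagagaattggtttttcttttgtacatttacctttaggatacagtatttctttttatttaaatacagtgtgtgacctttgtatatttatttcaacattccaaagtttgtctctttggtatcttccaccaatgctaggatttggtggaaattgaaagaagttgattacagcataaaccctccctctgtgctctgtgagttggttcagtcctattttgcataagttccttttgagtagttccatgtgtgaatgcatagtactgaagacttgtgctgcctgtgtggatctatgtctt
The upstream window was 71.7% G and C and held 1 CAGCTG, which lay beyond the end of every peak called there. The internal window was 36.3% G and C and held neither motif. Another upstream window of Tcf12 (chr9:72111152-72111451), which overlapped the promoter peaks of both WT libraries, also held neither and is not printed. Of 32851 RefSeq windows of this length, 16.3% held CAGCTG and 20.2% held CAGGTG.

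Id3 and Id2 differed at their promoters. The Id3 promoter region shared by the WT libraries (chr4:136143658-136143885) had a MACS2 score of 25 in WT 1 and 91 in WT 2 and no MACS2 peak in Dido1∆E16, although HOMER called a peak there in all 4 libraries. The Id2 promoter had a MACS2 peak in all 4 libraries (shared region chr12:25095951-25096415), with scores of 73 and 171 in WT, against 81 and 69 in Dido1∆E16, higher than 83.1% to 93.6% of the peaks of each library. Their windows from RefSeq (GRCm38.p6, Id3 on the plus and Id2 on the minus strand) are given with CAGCTG in capitals.
Id3, chr4:136143572-136143871: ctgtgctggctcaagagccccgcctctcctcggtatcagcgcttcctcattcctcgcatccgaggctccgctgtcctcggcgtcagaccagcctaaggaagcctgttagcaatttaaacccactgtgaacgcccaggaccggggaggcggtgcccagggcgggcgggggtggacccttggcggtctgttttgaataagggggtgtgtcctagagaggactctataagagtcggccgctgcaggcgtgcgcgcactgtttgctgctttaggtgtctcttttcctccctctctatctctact
Id2, chr12:25096043-25096342: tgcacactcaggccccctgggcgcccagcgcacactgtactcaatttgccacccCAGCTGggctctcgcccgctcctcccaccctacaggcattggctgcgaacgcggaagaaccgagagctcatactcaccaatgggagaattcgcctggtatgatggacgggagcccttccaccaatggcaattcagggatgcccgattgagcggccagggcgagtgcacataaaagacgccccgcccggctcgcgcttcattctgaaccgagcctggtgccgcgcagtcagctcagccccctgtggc
The Id2 window held 1 CAGCTG and the Id3 window held no CANNTG of any kind, as against 72.3% of all windows that held one.

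Id1 had a region in both WT libraries before its start (chr2:152735146-152735338) where neither Dido1∆E16 library had a MACS2 peak, although a HOMER peak of Dido1∆E16 2 covered it. At the start itself, MACS2 called a peak in WT 2 and Dido1∆E16 2 only, with scores of 64 and 30. A region after the gene (chr2:152741494-152741968) was shared by Dido1∆E16 2. Dido1∆E16 1 had no peak at Id1 with either caller. The promoter peak of Tcf3 (chr10:80433691-80434209 in both WT libraries) was present in all 4 libraries with scores of 51 and 137 in WT and 59 and 22 in Dido1∆E16. Within each library, these scores were higher than 71.9% and 89.8% of the peaks in WT and 69.5% and 29.2% in Dido1∆E16.

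Tcf4, the longest of the 6 genes, kept 6 of its 7 shared MACS2 regions, or 4 when a peak had to cover 50% of the region. With HOMER peaks, 3 of the 7 regions of Tcf4 shared by the WT libraries lacked a Dido1∆E16 peak, beside 29.3% of all. Both its upstream promoter (chr18:69344033-69344582) and its internal promoter (chr18:69593114-69593499) had a MACS2 peak in all 4 libraries, scoring 40 and 214 in WT and 60 and 42 in Dido1∆E16 at the first and 46 and 76 in WT and 53 and 23 in Dido1∆E16 at the second. Within each library, the first was higher than 58.9% and 96.5% of the peaks in WT and 70.3% and 69.9% in Dido1∆E16. The second was higher than 66.8% and 71.4% in WT and 64.2% and 32.1% in Dido1∆E16. A site in an intron after the internal start (chr18:69644342-69645022) and another further on (chr18:69662192-69662494) had a peak in both WT libraries and Dido1∆E16 1 but not in Dido1∆E16 2. The shared MACS2 region without a Dido1∆E16 MACS2 peak was in an intron near the upstream start (chr18:69365350-69365743).

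**Figure D5:**
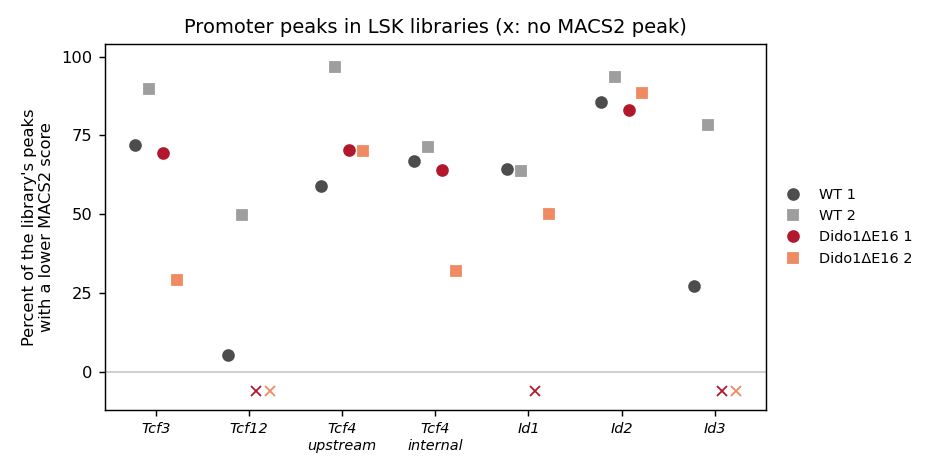
Strength of the highest-scoring promoter peak of the 6 genes in each LSK library, as the percentage of that library's MACS2 peaks with a lower score, with a cross where the library had no MACS2 peak. Tcf3, Id2 and both Tcf4 promoters have a point in all 4 libraries, and Tcf12 and Id3 have crosses in both Dido1∆E16 libraries.

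Tag counts were available where the authors had listed a region as different between genotypes, and that choice used this same contrast, so the values are given without a test. The Tcf4 upstream promoter (chr18:69343976-69346705) had log2 tag counts of 7.87 and 7.92 in WT, against 7.24 and 6.77 in Dido1∆E16. The Id2 promoter (chr12:25095200-25096604) had 7.81 and 7.83 in WT and 7.21 and 6.94 in Dido1∆E16. The differences were -0.89 and -0.74 on the log2 scale, although each held a MACS2 peak in every library. Of the 8540 regions in that list, 99.9% were lower in Dido1∆E16, with a median difference of -0.93, so the direction at Tcf4 and Id2 is that of the list as a whole. Tcf3, Tcf12, Id1 and Id3 had no listed region.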

How the data were processed

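RNA-seq of sorted pre-B cells and ATAC-seq of LSK cells were analysed, with 2 libraries per genotype, taken as replicates from the labels. Per the labels and file headers, the authors ran StringTie 2.0 on UCSC known genes of mm10 and deposited TPM, FPKM and exon coverage for each transcript. They aligned ATAC-seq reads with BWA 0.7.15 or Bowtie2, called peaks per library with MACS2, whose deposited peak score was used here, and with HOMER, and assigned genes with ChIPseeker, where a promoter spans 1 kb before to 200 bases after a start. Deposited log2 tag counts, scaled by the authors to library totals, of the regions they had selected with DESeq2 were also used. The authors' fold changes and p-values, held in 2 edgeR tables and the region lists, were not used.

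UCSC transcripts took their symbols from the deposited files or, where these gave none, from GENCODE vM21 exons covering at least 50% of their bases, which was the case for the one expressed Tcf3 transcript. In all, 4 composite immunoglobulin entries were left out of the fits. Gene sums and transcripts averaging 1 TPM or more were compared as log2(TPM + 1) by limma 3.58.1 (R 4.3.3, eBayes with a trend, Benjamini-Hochberg adjustment over all 11866 genes or 16368 transcripts), a procedure that was tested on simulated data. TPM keeps no read counts, so no counting error can be given, and StringTie's division of reads among transcripts limits every transcript value. Exon coverage was scaled by the ratio of summed TPM to summed coverage. Of 84 exons of the 6 genes, 74 had the same start and end in RefSeq on GRCm38.p6, which shares its coordinates with mm10. Permutation tests were exact and two-sided (SciPy 1.17.1). Shared regions overlapped by at least 1 base.

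The 6 genes and the lists were chosen with earlier results of these data known. Named from each list were the 3 genes with the largest fold change, any called gene and, for each member, the 2 genes nearest in profile. Ebf1, Pax5 and marker genes were named beyond that rule after their values were seen. The p-values measure the spread between pools of mice (RNA) or between libraries (ATAC). The labels give 2 ATAC libraries per genotype. Values of 1 listed gene are not reported here. Alternatives covered the pseudocount, filter, scaling, unit, symbols, moderation, replicate block, peak caller, peak number, overlap and each left-out library.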

Additional observations from a re-analysis of the deposited data

How the results depend on the processing

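The differences of Tcf3, Tcf4, Id1 and Id3 kept their direction under all alternatives run, with log2 fold changes of 0.11 to 0.43, 0.27 to 0.55, 1.48 to 4.18 and 0.46 to 0.59, and none of the 6 genes was called under any (Tcf3 could not be tested with the symbols of the authors' files only). Tcf12 turned to 0.10 without WT replicate 1 and to 0.09 without Dido1∆E16 replicate 1, and Id2 to 1.20 without WT replicate 2 and to 0.39 without Dido1∆E16 replicate 2, as its transcript did, and with a library left out they ranged from -0.14 to 0.10 and from -1.40 to 1.20. Also reversed were Skp2 (-0.72 without WT replicate 2, otherwise up to 1.77 with a library left out), Lmo2 (0.038 without Dido1∆E16 replicate 1, otherwise down to -0.42), uc009qpf.2 of Tcf12 (0.043 without WT replicate 1, otherwise down to -0.22), uc012ben.1 of Tcf4 (0.31 without Dido1∆E16 replicate 1, otherwise down to -5.30) and Dido1 (-1.01 with the symbols of the authors' files only, an alternative chosen after seeing the data, which leaves out transcripts). The causes were otherwise not tested.

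Genes called numbered 3 higher and 3 lower. They were 0 and 0 with a pseudocount of 0.1 and with no filter on low values, 74 and 13 without a trend, 6 and 5 for the transcript with the highest mean TPM, 6 higher with the symbols of the authors' files, and 0 to 0 when any library was left out, where the lone sample is assumed to vary like the others. Transcripts called numbered 15 higher and 10 lower. They were 3 and 1 with a pseudocount of 0.1, 2 and 1 with no filter, 53 and 44 without a trend, and 0 to 524 higher and 0 to 18 lower when a library was left out (462 and 524 higher without Dido1∆E16 replicates 1 and 2, 0 without either WT replicate). With the replicate number as a block, 0 genes and 0 transcripts were called in either direction. The numbers name the libraries only, since differences between replicates 1 and 2 correlated at 0.05 between genotypes over 11866 genes, so the block is no paired test.

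For the alternative exons, the Tcf12 internal first exon, at -0.05 (log2 of the Dido1∆E16 over the WT mean), turned to 0.020 relative to shared exons, and ranged from -0.30 to 0.17 when a library was left out. Of the 6 genes, 3 were lower in MACS2 peaks in both mutant libraries, beside 35.6% of all genes, and 0 with HOMER peaks, beside 19.5%. The count was 2 with peaks in the gene body and 5 kb upstream (not Tcf4) and 0 with the same number of best-scoring peaks. It was 3 to 5 when a library was left out (5 without WT replicate 1). For these other settings no share over all genes is given. Of the shared WT regions, 6 of 15 lacked a Dido1∆E16 peak, beside 43.7% of all such regions. With an overlap of at least 50% it was 9 of 15 (3 of 7 for Tcf4 and 2 of 2 for Id1), beside 49.2%. With HOMER peaks it was 3 of 12 (3 of 7 for Tcf4), beside 29.3%, and with the same number of best-scoring peaks 0 of 3, beside 13.2%. When a library was left out it was 6 to 28, beside 45.6% to 69.9% of all regions. Without WT replicate 1 it was 28 of 38, beside 69.9%.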
